A study of Mus musculus and Rattus norvegicus with 18 samples.

Results

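This comparison set RNA from H9C2 cells without Mettl1 against RNA from unedited H9C2 cells, and covered 6 of the 18 samples of the series and 14801 genes, those of 32883 features in the rat table that passed a filter on low counts. H9C2 is an established myoblast line from embryonic rat heart, for which the labels give the strain Sprague-Dawley, and all cells were grown in high-glucose DMEM with 10% fetal bovine serum and antibiotics. The 3 null samples came from an edited line in which CRISPR-Cas9 introduced a frameshift into Mettl1, and the 3 WT samples came from cells with normal Mettl1. The sources used here do not say whether the edited line was 1 clone or whether the samples of a group were separate cultures, so a p-value below reflects only how much these 6 libraries differ and may rest on technical spread. Loss of Mettl1 and the derivation of a single edited line cannot be told apart in this design. The remaining samples are hearts of 4-week-old C57BL/6 mice, Ctrl or with a conditional knockout of Mettl1 (cKO), of which the 4 RNA libraries are used at the end as a reference, and the labels do not give the cells in which the knockout was made.

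Mettl1 is the catalytic subunit of a methyltransferase that places N7-methylguanosine on the variable loop of a set of tRNAs, and Wdr4 is the subunit that holds the tRNA. The mark stabilises these tRNAs and supports decoding of the codons they read, and loss of the enzyme is known to change translation, growth and stress signalling. Several programmes described below are controlled by well-known regulators. Sterol regulatory element binding proteins (SREBPs) switch on genes of cholesterol and fatty acid synthesis, Atf4 switches on genes of amino acid supply during the integrated stress response, and Nrf2 (gene Nfe2l2) switches on antioxidant and detoxification genes.

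The targeted gene was checked first. Mettl1 (ENSRNOG00000047895) stood at 16.6, 15.6 and 16.2 CPM, a count level relative to the normalised library size, in the WT libraries and at 4.28, 4.72 and 3.75 CPM in the null libraries. The groups did not overlap, and the log2 fold change, here always null minus WT, was −1.93 (SE 0.11, n = 3 against 3, adjusted p = 1.1e-05). Every adjusted p here comes from the quasi-likelihood test of edgeR, adjusted by the Benjamini-Hochberg method over all genes tested. A frameshift alters the protein and need not remove the transcript, so this value describes the RNA that was left. Of 44 tested genes of the Mettl1 complex and other tRNA modification enzymes, 6 fell and 4 rose, a share of 22.7% against 25.1% of all genes tested. Besides Mettl1, the members that fell were Osgep (log2 fold change −0.63), the tRNA guanosine methyltransferase Thumpd3 (−0.41), Pus7 (−0.33), Ctu2 (−0.30) and Trub1 (−0.21), and those that rose were Trmt2a (0.24), Trmt1 (0.25), Trmt44 (0.29) and Trmt6 (0.38). Without WT 1 the counts were 1 up and 3 down, without null 3 they were 2 up and 3 down, and 1 rose without null 1 or without null 2.

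The label of the cells was compared with marker genes. The labels call the cells cardiomyocytes. Myod1, the master regulator of skeletal myoblasts, stood at 115, 124 and 103 CPM in WT, and the myoblast cadherin Cdh15, desmin (Des) and Myog were also present, whereas Myf5 had 0 counts in all 6 libraries. Of the defining markers of cardiomyocytes, the transcription factors Nkx2-5 and Gata4 and the troponin Tnnt2 were measured, Ryr2 had 0 counts, and Myh6 (24 counts over the WT group and 14 over the null group), Tnni3 (20 and 38), Myl7 (10 and 35) and Nppa (6 and 0) were near 0. Of the fibroblast markers, Col1a1 and Thy1 were abundant, whereas Pdgfra (15 counts over the WT group and 39 over the null group), Dcn (106 and 11) and Lum (384 and 34) had few counts. Dcn was lower in the null cells (log2 fold change −3.29, adjusted p = 0.0220). The smooth muscle genes Acta2 and Tagln were abundant, and Cnn1 and Myh11 were measured at lower levels. Cdh5 (endothelium), Ptprc and Adgre1 (leukocytes), Epcam (epithelium) and Rbfox3 (neurons) had 0 counts, Kdr, Cdh1 and Sox10 had 15 counts or fewer over a group, and Cd3e (72 and 23) and Gfap (113 and 72) had few. Myoblast factors were thus present, and of the contractile cardiomyocyte markers Tnnt2 alone was clearly above 0. In bulk samples fewer cells of a type and less RNA per cell cannot be told apart.

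Library totals were close, 90.32 to 94.2 M deposited counts, and Pearson correlations of log levels ran from 0.9827 to 0.9892 within groups and from 0.9667 to 0.9718 between them. The first principal component held 55.5% of the variance and separated the groups, and the second (15.3%) spread the WT libraries, with WT 2 at −40.41 and WT 3 at 32.2 and all others from −6.94 to 11.48. WT 2 also had the highest share of counts from mitochondrial genes, 7.77% against 6.41 to 6.72% in the others. A feature counted in only 1 library most often had 6 counts, so a single read pair may stand for about 6 deposited counts, and a group listed at 0 was given a floor of 18 counts over its libraries.

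In all, 3720 genes (25.1%) passed an adjusted p of 0.05, of which 2014 were higher in the null cells (13.6% of all tested) and 1706 lower (11.5%). The median log2 fold change of all genes tested was 0.0044. Changes of at least 2-fold were mostly increases, with 584 genes higher (3.95%) and 128 lower (0.865%) among 712 in all (4.81%). The 3 libraries of each group did not overlap for 42.6% of genes tested. These percentages are the background for the counts of members given below. The count of called genes depended on single libraries, at 2463 without WT 1, 2396 without null 1 and 2354 without null 3. Genes higher and lower numbered 1451 and 1012 without WT 1, 1368 and 1028 without null 1, and 1414 and 1088 without null 2. They numbered 1348 and 1006 without null 3, 2195 and 1772 without WT 2, and 2345 and 2110 without WT 3. Member counts below from fits without 1 library are to be read beside these totals. A change in such a count alone is not particular to its list.

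**Figure D1:**
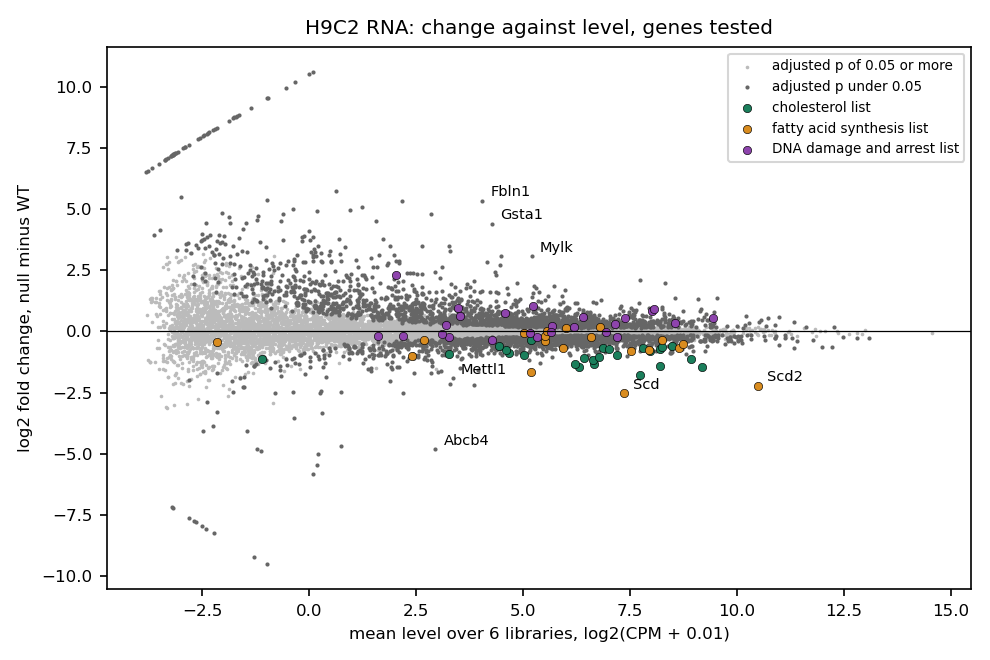
Log2 fold change (null minus WT) of each tested gene against its mean level over the 6 libraries, log2(CPM + 0.01), with genes of 3 lists in colour. Most genes of cholesterol and fatty acid synthesis lie below 0, Mettl1 stands at −1.93, and the oblique rows of points at the upper and lower left are genes with 0 counts in 1 group, whose fitted value is no measured fold.

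Genes of cholesterol synthesis and uptake were lower almost without exception in the null cells. Of 25 listed genes, all 25 were tested, 24 fell, 0 rose and 1 did not pass, against a background of 11.5% lower, and 10 of them fell at least 2-fold. The median was −0.98, and the summed level of the list was 5489, 5403 and 5557 CPM in WT and 2699, 2676 and 2681 CPM in the null libraries. Leaving out any 1 library, or changing the scaling, filter or tool, gave 23 to 25 members lower and 0 higher.

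Promoter sequence is shown for the 4 genes of this list with the largest falls, because SREBPs act at such promoters together with the factor NF-Y, which binds CCAAT. The sequences are RefSeq promoters of the mouse genes (build GRCm38.p6), not of the rat, and the motifs were chosen after the values had been seen. Capitals mark CCAAT, its reverse complement ATTGG, and TCACCCCAC, a form of the sterol regulatory element. Each stretch is 80 bases, written 5′ to 3′ on the strand of the gene. It was picked as the window with most marked motifs in the 250 bases before the start site, TCACCCCAC counting more than CCAAT. The stretches therefore lie at different distances, such as 250 to 171 bases before the start for Insig1 and 80 to 1 for Cyp51.
Hmgcs1, chr13:119690158-119690237, + strand: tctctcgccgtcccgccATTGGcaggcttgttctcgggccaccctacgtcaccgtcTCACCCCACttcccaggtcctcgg
Insig1, chr5:28071162-28071241, + strand: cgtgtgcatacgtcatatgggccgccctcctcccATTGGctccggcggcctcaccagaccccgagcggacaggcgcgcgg
Cyp51, chr5:4104698-4104777, − strand: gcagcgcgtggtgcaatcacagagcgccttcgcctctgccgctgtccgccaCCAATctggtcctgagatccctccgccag
Dhcr7, chr7:143830109-143830188, + strand: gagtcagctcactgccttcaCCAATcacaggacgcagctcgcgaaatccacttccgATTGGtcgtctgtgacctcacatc
In the 250 bases before the start site, on either strand, CCAAT was found in 16 of the 17 genes of this list with a mouse promoter in the table used (94.1%), in 11 of 16 genes of fatty acid synthesis (68.8%) and in 37.49% of all 27025 gene symbols. The exact letters TCACCCCAC or GTGGGGTGA were found in 1 of the 17, Hmgcs1, in 0 of the 16 and in 0.56% of all symbols. The 27025 symbols were not limited to genes tested here, so these shares are unmatched and no test was made between them. A match describes letters in a window and is no evidence of binding in these cells.

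The regulators of the pathway are described before its enzymes. Insig1, the endoplasmic reticulum protein that holds back SREBP processing when sterols are plentiful and is itself an SREBP target, stood at 331, 319.6 and 333 CPM in WT and at 93.5, 95.2 and 93.4 CPM in the null libraries (log2 fold change −1.80, SE 0.05, adjusted p = 2.3e-07). Srebf2, which encodes the sterol-responsive SREBP, was at 274, 256 and 296 CPM in WT and at 173, 164 and 174 CPM without Mettl1 (−0.69, SE 0.06, adjusted p = 1.1e-04). Srebf1, its relative for fatty acid genes, went from 48.5 to 42.7 CPM and did not pass (adjusted p = 0.0583).

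Enzymes along the whole route were lower. Hmgcs1, which makes HMG-CoA, was at 429.9, 395 and 447 CPM in WT and at 165, 155 and 159.7 CPM in the null libraries (−1.41, SE 0.06, adjusted p = 2.4e-06). Among the enzymes of the mevalonate and isoprenoid steps the values were −0.89 for Mvk, −0.61 for Pmvk, −1.35 for Mvd, −1.17 for Idi1, −1.12 for Fdps and −0.98 for Fdft1. Among those that build the sterol ring, Sqle had −0.62, Lss −1.08, Msmo1 −0.82 and Nsdhl −1.06. Cyp51, the lanosterol demethylase, fell from 845, 818 and 868 CPM to 309, 316 and 300.2 CPM (−1.45, SE 0.05, adjusted p = 7.5e-07). Dhcr7, which makes cholesterol from its last precursor, fell from 117, 118 and 110.1 CPM to 41.6, 42.5 and 43.1 CPM (−1.44, SE 0.05, adjusted p = 1.1e-06). The smallest change was that of Ebp (−0.37). For each of the 24 genes that fell, every null library lay below every WT library.

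**Figure D2:**
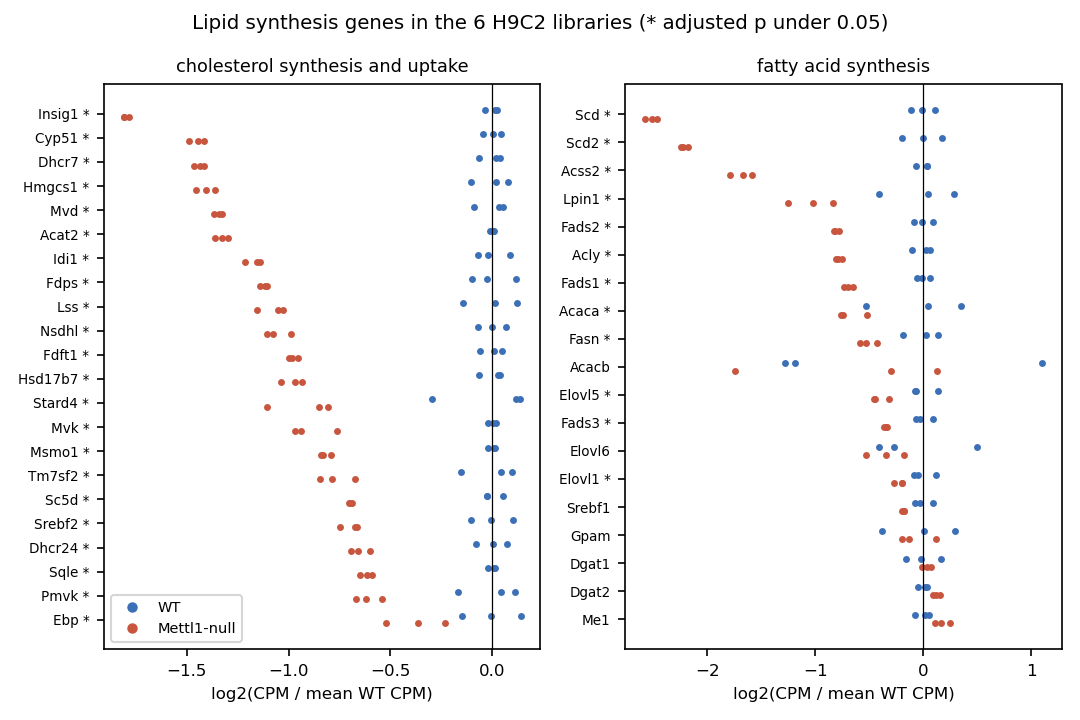
Level of tested genes of cholesterol synthesis and uptake (left) and of fatty acid synthesis (right) in each H9C2 library, as log2 of CPM over the mean WT CPM, 1 point per library, blue for WT and red for Mettl1-null. For every cholesterol gene drawn with an asterisk (adjusted p under 0.05) the red points lie left of the blue ones, and Scd and Scd2 lie furthest left in the other panel, at log2 fold changes of −2.52 and −2.22.

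Fatty acid synthesis moved the same way in part. Of 19 tested members 12 fell and 0 rose, with a median of −0.44, and 4 fell at least 2-fold. The stearoyl-CoA desaturases, which put the double bond into saturated fatty acids, changed most. Scd2 was at 2375, 2076 and 2694 CPM in WT and at 525, 508 and 503 CPM in the null libraries (−2.22, SE 0.09, adjusted p = 2.1e-06), the largest loss in CPM among the named genes. Scd was at 279, 261 and 305 CPM in WT and at 50.8, 49.2 and 47.2 CPM without Mettl1 (−2.52, SE 0.07, adjusted p = 2.8e-07). Scd and Scd2 are close paralogs, so the split of reads between them is uncertain, but neither group of libraries overlapped for either gene. Acss2, which makes cytosolic acetyl-CoA from acetate, fell from 56.4, 52.5 and 56.3 CPM to 18.3, 17.3 and 16 CPM (−1.68). The other members that fell were Lpin1 (−1.03), Fads2 (−0.81), the citrate lyase Acly (−0.78), Fads1 (−0.69), Acaca (−0.67), Fasn (−0.51), Elovl5 (−0.40), Fads3 (−0.35) and Elovl1 (−0.22). Lpin1 also acts in triglyceride synthesis, and of other genes of that route Dgat1 (0.03), Dgat2 (0.12) and Gpam (−0.06) did not pass. With library totals 2 members of the list rose, and 1 rose with DESeq2, with the stricter count filter, with counts divided by 6 or without WT 2.

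Ketone body genes, which the series title raises, were measured at 9 genes, of which 2 fell and 1 rose. Aacs, which activates acetoacetate for lipid synthesis in the cytosol, was at 133, 125 and 135 CPM in WT and at 60, 59.9 and 65 CPM in the null libraries (−1.09, SE 0.06, adjusted p = 7.3e-06). Oxct1, the mitochondrial enzyme that lets cells burn ketone bodies, fell from 309.6, 277 and 313 CPM to 207, 207 and 205 CPM (−0.54, SE 0.06, adjusted p = 2.6e-04). The monocarboxylate transporter Slc16a7 rose from 27.9 to 38.6 CPM (0.46). Bdh1 (−0.06), which interconverts acetoacetate and hydroxybutyrate, Bdh2 (0.11), Acat1 (−0.03) and the transporter Slc16a1 (−0.11) did not pass.

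Fuel use showed mixed changes. In amino acid catabolism 10 of 25 tested genes fell and 0 rose (median −0.19), among them Bcat1, which takes the amino group from branched-chain amino acids (456 to 247 CPM, −0.88), Pcca (−0.70) and the branched-chain keto acid dehydrogenase subunit Bckdhb (−0.69). In the citric acid cycle and pyruvate entry 10 of 34 fell and 1 rose. The members that fell included the succinyl-CoA ligase subunits Suclg2 (−0.64) and Suclg1 (−0.45) and isocitrate dehydrogenase Idh2 (−0.54). The member that rose was Pdk4, a kinase that closes pyruvate entry, from 0.148 to 0.944 CPM (2.66), a low level in both groups. With WT 1, null 2 or null 3 left out, 5 citric acid cycle genes fell, and 6 without null 1.

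Among 28 tested genes of glucose transport and glycolysis 8 fell and 5 rose. Ldhb fell from 449, 474 and 419 CPM to 232, 249 and 237 CPM (−0.90, SE 0.06, adjusted p = 2.3e-05), and Hk2 (−0.58), Tpi1 (−0.51) and Pfkl (−0.38) fell as well, whereas Slc2a1 (0.42), Eno3 (0.41), the insulin-responsive transporter Slc2a4 (0.37), Hk1 (0.23) and Pkm (0.20) rose. The count of increases was 3 without WT 1 or null 2 and 2 without null 1 or null 3. Fatty acid uptake and oxidation also went both ways, with 8 of 34 tested genes higher and 6 lower. Cpt1a, the gate for fatty acid entry into mitochondria, rose from 59.2, 53.5 and 66.4 CPM to 113, 109 and 108 CPM (0.89, SE 0.08, adjusted p = 1.0e-04), together with Ucp2 (0.68), Acadvl (0.42) and Lpl (0.39), while the long-chain acyl-CoA synthetases Acsl3 (−0.87), Acsl4 (−0.61) and Acsl1 (−0.60) fell. Without null 2, 5 genes of this list rose.

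Of 59 tested nuclear genes of the respiratory chain 8 fell and 1 rose, 15.3% called against 25.1% of all genes tested. This count moved with single libraries. It was 27 lower without WT 3, and 2 lower without WT 1, 3 without null 1, 5 without null 2 and 3 without null 3. With DESeq2 it was 15 and with library totals 5, and 3 rose without WT 2. Ndufa4 (−0.44), Ndufa9 (−0.37) and Cycs (−0.24) were among the members that fell. The member that rose was Cox6a2, the muscle isoform of a cytochrome oxidase subunit, from 6.03 to 13.1 CPM (1.12). Of 13 messenger RNAs of the mitochondrial genome 3 fell, Mt-cyb, Mt-nd5 and Mt-nd4l, each by at most 0.31 on the log2 scale. The share called was 23.1%, against 25.1% of all genes tested. Mt-cyb was at 7111, 8916 and 7300.0 CPM in WT, with WT 2 the highest library as it was for the mitochondrial share, and at 6497, 6537 and 6543 CPM in the null libraries (adjusted p = 0.0493). These calls were unstable: that of Mt-cyb was lost in 9 of 14 alternatives, that of Mt-nd4l in 5, the fit without WT 2 among them, and that of Mt-nd5 in 3. Without WT 2, 2 members of the list rose and 2 fell, and the median went from −0.11 to −0.01. Without WT 3, with DESeq2 or with a replicate block 5 fell, and without any 1 null library all the falls were lost.

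In the lists of the protein synthesis machinery the genes that passed were lower, Mrpl1 excepted, mostly by small amounts. Of 23 tested genes of cytosolic aminoacyl-tRNA synthetases and their scaffold, which charge tRNAs with amino acids, 11 fell and 0 rose (47.8% called, median −0.15). Gars, the glycyl-tRNA synthetase, changed most, from 491, 494 and 466 CPM to 299.8, 308 and 306 CPM (−0.67, SE 0.05, adjusted p = 3.0e-05), followed by Iars1 (−0.45), Yars1 (−0.38) and Lars1 (−0.37). Leaving out any 1 library kept between 10 and 12 members lower and 0 higher. Their summed level was 5597 to 5676 CPM in WT and 4802 to 4818 CPM in the null libraries.

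Translation factors had 11 of 36 members lower and 0 higher (median −0.12). The elongation factor Eef2 was at 3910.0, 3869 and 3933 CPM in WT and at 3118, 3024 and 3078 CPM without Mettl1 (−0.35, SE 0.04, adjusted p = 3.6e-04), and Eef1a1, which brings charged tRNA to the ribosome, fell from 6129 ± 162 to 5164 ± 144 CPM (−0.25). Both were among the 6 named genes with the largest loss in CPM. Without WT 1 or null 3, 6 translation factors fell. In ribosome biogenesis 11 of 31 fell and 0 rose, with Polr1a, the largest subunit of RNA polymerase I, at −0.50, Nop2 at −0.47 and fibrillarin (Fbl) at −0.36. That count was 4 without WT 1 or null 2, 3 without null 3, and 7 without null 1, with library totals or with a replicate block.

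Cytosolic ribosomal proteins had 38 of 81 tested features (77 symbols were listed, and some have several features) lower and 0 higher, with a median of −0.30. Their summed levels were 40025, 45059 and 35557 CPM in WT, against 30912, 33795 and 33002 CPM in the null libraries. WT 3 thus lay nearest to the null libraries. The count was 69 without WT 3, 13 without WT 1, 11 without null 1, 20 without null 2 and 14 without null 3, with a median from −0.39 to −0.20 and 0 higher throughout. The largest fall was Rpl32, from 453, 506 and 422 CPM to 221, 272 and 269.9 CPM (−0.86, SE 0.10). Genes of this family have many near-identical copies, and a second feature with the symbol Rpl32 did not pass (−0.49, adjusted p = 0.522), so single members are uncertain. Among mitochondrial ribosomal proteins 14 of 72 fell and 1 rose, 20.8% called against 25.1% of all genes tested. The count of falls was 27 without WT 3, 2 without WT 1 or null 1, 8 without null 2 and 6 without null 3. Mrps35 (−0.72) and Mrps27 (−0.47) were among those that fell, and Mrpl1 (0.52) rose, a call that was lost without WT 1, WT 3 or any 1 null library or with no count filter, while 3 rose without WT 2.

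In the integrated stress response list 11 of 31 tested genes fell and 5 rose. Asns, the asparagine synthetase and a direct target of Atf4, was at 231, 235 and 226 CPM in WT and at 117, 114 and 108 CPM in the null libraries (−1.03, SE 0.05, adjusted p = 4.7e-06). Atf4 itself fell from 548, 589.8 and 499.9 CPM to 410.3, 444 and 419.6 CPM (−0.36, SE 0.07, adjusted p = 0.00478), and Atf5 (−0.56), the amino acid transporters Slc7a5 (−0.58), Slc1a5 (−0.55) and Slc7a1 (−0.28) and the transaminase Gpt2 (−0.67) fell too. Atf4 is controlled largely at translation, which RNA levels do not show. Ddit3, which encodes the stress factor Chop, rose from 40.3, 48.2 and 38.8 CPM to 59.6, 63.6 and 65.6 CPM (0.57, adjusted p = 0.00196), and the secreted protein Stc2 rose from 32.9 to 54.2 CPM (0.72). Fgf21, a stress hormone, had 0 counts over the WT group and 57 over the null group, at least 3.01-fold higher against the floor of 18 counts. The kinases Eif2ak1 (0.23) and Eif2ak2 (0.28) also rose. The count of falls was 7 without WT 1 or null 1 or with a replicate block and 6 without null 2 or null 3, and with library totals 8 rose.

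Serine synthesis and one-carbon metabolism, which supply glycine and folate-bound carbon, had 11 of 23 tested genes lower and 2 higher (median −0.23). Mthfd2, the mitochondrial folate enzyme, was at 155, 157 and 151 CPM in WT and at 84.3, 86.8 and 84 CPM without Mettl1 (−0.86, SE 0.05, adjusted p = 7.8e-06). Psat1, of serine synthesis, fell from 454, 452 and 439 CPM to 268, 257 and 251 CPM (−0.79, SE 0.05, adjusted p = 1.3e-05), and its pathway neighbours Phgdh (−0.38) and Psph (−0.32) fell less. Mat2a (−0.58), Pycr1 (−0.53), Shmt2 (−0.39) and Aldh18a1 (−0.38) were lower as well. The members that rose were Shmt1 (0.25) and the weakly expressed Aldh1l1 (0.251 to 0.776 CPM, 1.62). Without WT 1, null 1 or null 3, with a replicate block or with counts divided by 6, 1 member rose, without null 2 both increases were lost, and with library totals 4 rose.

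Chaperones went both ways. In the endoplasmic reticulum list 7 of 25 fell and 3 rose, with Pdia4 (455 to 295 CPM, −0.63), Sec61b (−0.55) and Edem1 (−0.48) lower and the sensors Atf6 (0.37) and Ern1 (0.23) and the chaperone Dnajb11 (0.29) higher. The central chaperone Hspa5 had a log2 fold change of −0.03 and did not pass. Without WT 1 or any 1 null library, 4 genes of this list fell, and 1 rose without WT 1, null 2 or null 3. Of 26 heat shock and cytosolic chaperone genes 10 fell and 4 rose, Hsph1 (437 to 313 CPM, −0.48) and Hspe1 (−0.36) among the former. The 4 that rose were the small heat shock genes Hspb7 (65.8 to 158 CPM, 1.27), Hspb2 (0.45) and Cryab (0.40) and their partner Bag3 (0.30), which are typical of striated muscle. Falls in this list numbered 4 without WT 1 or null 3 and 5 without null 1 or null 2.

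Genes switched on after DNA damage, which arrest the cell cycle, repair DNA or promote cell death, changed mostly upwards. Of 25 tested members of this DNA damage and arrest list 12 rose and 3 fell (median 0.25), against a background of 13.6% higher, and each alternative setting also gave 12 higher. The falls were lost without WT 1 or null 3 and numbered 1 without null 1 or with a replicate block, and the median lay between 0.13 and 0.31. Cdkn1a, the inhibitor p21 that halts the cell cycle, was at 189, 191 and 176 CPM in WT and at 336, 349 and 365 CPM in the null libraries (0.92, SE 0.05, adjusted p = 1.4e-05). Mdm2, a ubiquitin ligase, rose from 182, 192 and 178 CPM to 325, 333 and 333 CPM (0.85, SE 0.05, adjusted p = 1.2e-05). The death receptor Fas rose from 24.7, 25.5 and 23.1 CPM to 50.7, 49 and 50.7 CPM (1.04), and Eda2r, a receptor of the TNF family, from 0.9, 1.57 and 1.68 CPM to 7.59, 7.04 and 5.56 CPM (2.28, SE 0.24). Zmat3 (0.95), Pidd1 (0.76), Aen (0.58), Ccng1 (0.54) and Plk2 (0.54) rose as well. Bax (0.17) and Gadd45a (0.20) did not pass. The members that fell were Xpc (−0.35), Pmaip1 (−0.23) and Btg2 (−0.23). Among 27 apoptosis regulators 5 rose and 1 fell, 22.2% called against 25.1% of all genes tested. Mlkl (0.70) and Bcl2l1 (0.55) were higher and Casp2 (−0.72) lower, and 8 of these regulators rose without WT 3. Falls numbered 2 with RLE factors, DESeq2 or the stricter filter, or without WT 2.

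Antioxidant genes under Nrf2 had 13 of 31 members higher and 1 lower (median 0.30). Gsta1, a glutathione transferase, was at 1.61, 1.87 and 1.76 CPM in WT and at 35.6, 36.1 and 39 CPM in the null libraries (4.4, SE 0.09, adjusted p = 2.0e-07), and it has close paralogs that could share reads. Nqo1, the quinone reductase, rose from 129.8, 138 and 124 CPM to 496, 508 and 516 CPM (1.96, SE 0.05, adjusted p = 2.8e-07). Hmox1, which degrades haem, rose from 68.8, 72.5 and 67.5 CPM to 116, 116 and 129.8 CPM (0.79), and Osgin1 from 3.73 to 9.52 CPM (1.35). Smaller increases were seen for Gstp1 (0.69), Taldo1 (0.55), Cat (0.54), Txnrd1 (0.42), Gclc (0.36) and Nfe2l2 itself (0.34). The glutathione peroxidase Gpx1 fell (−0.53), and Gclm, Slc7a11 and Keap1 did not pass. Outside the list, extracellular superoxide dismutase, Sod3, rose from 0.289, 0.74 and 0.479 CPM to 11.6, 16.6 and 13.1 CPM (4.78, SE 0.29). Of 6 tested metallothioneins and zinc handling genes, Slc30a1 (0.67) and the weakly expressed Mt2A (1.79) rose, and the call of Mt2A was lost without null 2 (adjusted p = 0.0785).

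**Figure D3:**
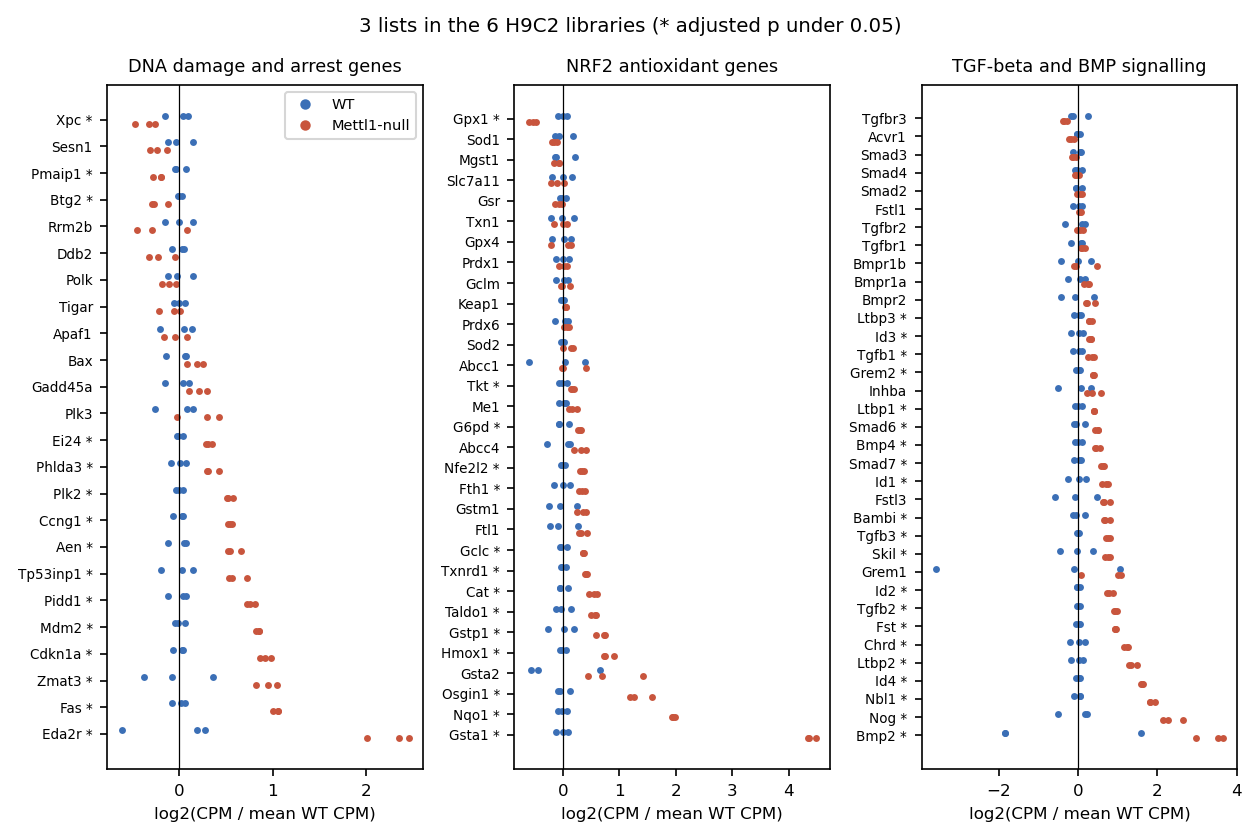
Level of tested genes of 3 lists (DNA damage and arrest, Nrf2 antioxidant genes, TGF-beta and BMP signalling) in each H9C2 library, as log2 of CPM over the mean WT CPM, 1 point per library, blue for WT and red for Mettl1-null, with an asterisk where the adjusted p was under 0.05. The red points of Eda2r, Gsta1, Nqo1, Nog and Nbl1 stand clear of the blue ones, and most genes near the vertical line at 0 carry no asterisk.

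Signals of the TGF-beta and BMP family rose at the level of ligands, antagonists and targets. Of 35 tested members 21 rose and 0 fell (median 0.48), and the summed level was 2951, 2828 and 3022 CPM in WT and 4342, 4206 and 4241 CPM in the null libraries. Among ligands, Tgfb2 rose from 167, 165 and 174 CPM to 332, 314 and 320.2 CPM (0.93, SE 0.05, adjusted p = 6.2e-06), and Tgfb3 (0.75), Bmp4 (0.48) and Tgfb1 (0.34) rose as well. Antagonists rose too, with Nbl1, which binds BMPs, going from 23.5, 23.7 and 21.1 CPM to 80.1, 80.7 and 87.1 CPM (1.86, SE 0.07, adjusted p = 1.3e-06), Nog from 0.636 to 3.27 CPM (2.36), Chrd from 6.43 to 14.9 CPM (1.21) and the activin antagonist Fst from 126 to 241 CPM (0.93). The latent TGF-beta binding protein Ltbp2 rose from 214, 187 and 229 CPM to 584, 514 and 526 CPM (1.37). Targets of BMP signalling followed the same direction, with Id4 at 9.51, 9.32 and 8.87 CPM in WT and 28, 28.5 and 27.6 CPM in the null libraries (1.60), and Id2 (0.80), Id1 (0.69), Id3 (0.31), Smad7 (0.62) and Smad6 (0.48) higher. Of the receptors, Tgfbr1, Tgfbr2, Tgfbr3, Bmpr1a, Bmpr1b, Bmpr2 and Acvr1 did not pass, and neither did Smad2, Smad3 and Smad4. With DESeq2, with the stricter filter or without WT 2, 1 member of the list fell.

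Neighbouring signalling lists also held more increases than decreases. Targets of YAP and SRF had 10 of 19 members higher and 3 lower, with the matricellular gene Ccn2 rising from 423, 403 and 367 CPM to 749, 748 and 732 CPM (0.90, SE 0.06, adjusted p = 2.3e-05) and Crim1 from 257 to 422 CPM (0.71). The falls were lost without WT 1 or null 3 and numbered 1 without null 1 or null 2 or with a replicate block. In Wnt and Notch signalling 13 of 34 rose and 4 fell. The Wnt co-receptor Lrp5 went from 11.9, 12.6 and 11 CPM to 48.8, 42.3 and 46.6 CPM (1.96, SE 0.08, adjusted p = 2.5e-06), the receptor Notch3 from 8.31, 6.49 and 8.82 CPM to 26.7, 24.5 and 23.2 CPM (1.66), Notch1 from 16.4 to 39.6 CPM (1.27) and the Notch target Heyl from 0.225 to 1.34 CPM (2.56). Ror2, a receptor for Wnt5a, had 0 counts over the WT group and 75 over the null group, at least 3.96-fold higher. Fzd1 (−0.68), Fzd6 (−0.41), Notch2 (−0.27) and Tcf7l2 (−0.26) fell, 2 of the 4 falls being left without WT 1, null 2 or null 3, with library totals or with no count filter.

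Growth factors and receptors had 13 of 38 members higher and 4 lower. Igfbp4 rose from 14.6, 14.4 and 14.3 CPM to 31.5, 34.3 and 33.1 CPM (1.19), and Fgfr2 (1.01), Pdgfb (1.44), Erbb3 (1.65), Kitlg (0.88) and Igf1r (0.68) rose, while Igf2 (−0.53), Igfbp5 (−0.44), Igfbp7 (−0.34) and Pdgfrb (−0.30) fell. The falls numbered 2 without null 1 and 1 without null 2. Of 31 immediate early genes 11 rose and 5 fell. Dusp6, a phosphatase induced by ERK that switches ERK off, rose from 27.1, 27 and 26.4 CPM to 66.6, 62.3 and 64 CPM (1.26, SE 0.06, adjusted p = 3.1e-06), and Dusp1 (0.94), Fosl1 (0.89) and Etv4 (0.83) rose, whereas Egr1 (−0.78), Jund (−0.68) and the nuclear receptor Nr4a3 (−0.91) fell.

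The muscle programme shifted in several directions. Of 37 tested skeletal myogenic genes 16 rose and 2 fell (median 0.42). Myod1 rose from 115, 124 and 103 CPM to 186, 179.6 and 196 CPM (0.71, SE 0.07, adjusted p = 2.3e-04), whereas Myog, which acts later and drives terminal differentiation, fell from 16, 16.4 and 16.3 CPM to 7.39, 7.3 and 8.05 CPM (−1.10, SE 0.08, adjusted p = 5.3e-05). Desmin (Des), the intermediate filament of muscle, rose from 32.2, 34.5 and 30.9 CPM to 83.1, 90.2 and 88.8 CPM (1.42, SE 0.06, adjusted p = 3.1e-06). Nebulin (Neb) rose from 2.72 to 9.67 CPM (1.83), skeletal actin Acta1 from 0.816 to 4.05 CPM (2.31), and Mymk, needed for myoblast fusion, from 6.09 to 14 CPM (1.2). Without null 2 or null 3, 10 members rose.

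Of 42 listed cardiac genes 24 passed the count filter, and of these 10 rose and 4 fell. Tnnt2, cardiac troponin T, was at 25, 22 and 22.6 CPM in WT and at 7.19, 8.31 and 7.88 CPM in the null libraries (−1.57, SE 0.09, adjusted p = 1.4e-05). The transcription factor Gata4 rose from 21.5, 21.3 and 19.4 CPM to 31.8, 31.8 and 31 CPM (0.60, SE 0.07, adjusted p = 3.5e-04), Nkx2-5 did not pass (0.07), and Ankrd1, a stretch-responsive titin partner, rose from 1644, 1632 and 1573 CPM to 2405, 2467 and 2426 CPM (0.59), the largest gain in CPM among the named genes. Slc8a1 (0.87) and Pln (0.85), which handle calcium, rose, and Casq2 (−0.37) and Cacna1c (−0.30) fell. The falls numbered 2 without WT 1 or any 1 null library, or with library totals. Among 33 ion channels and transporters 13 rose and 6 fell, with Kcnj8 (−0.93) and Cacna2d1 (−0.71) lower. Kcnmb1 had 0 counts in WT and 56 over the null group, at least 2.96-fold higher. Without WT 1 or null 3, 3 channels fell.

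Smooth muscle contractile genes had 10 of 19 members higher and 2 lower. Mylk, the kinase that activates smooth muscle myosin, was at 7.83, 7.03 and 8.29 CPM in WT and at 69.3, 65.3 and 62.4 CPM in the null libraries (3.09, SE 0.08, adjusted p = 2.8e-07). Synpo2 rose from 37.6 to 66.1 CPM (0.81). Other increases were small, such as Tpm2 (0.29), Tagln (0.27) and Cnn1 (0.26), and Acta2 did not pass (0.02). Without WT 1 the count of increases was 3, without null 1 or null 3 it was 4 and without null 2 it was 5, and 1 member fell in each of these fits. Of 31 genes of the actin cytoskeleton and adhesion 8 rose and 5 fell, with the laminin-binding integrins Itga6 (0.85), Itga3 (0.77) and Itga7 (0.68) higher and the focal adhesion protein Zyx lower (635 to 367 CPM, −0.79). The falls numbered 2 without WT 1 or null 3 and 3 without null 1 or null 2, with library totals or with a replicate block.

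Matrix genes changed in both directions, with 18 of 50 tested collagen and matrix genes higher and 8 lower. Fbln1, a basement membrane glycoprotein, was at 0.878, 0.865 and 0.631 CPM in WT and at 31.5, 31.5 and 33.1 CPM in the null libraries (5.34, SE 0.13, adjusted p = 2.2e-07). Spp1, osteopontin, rose from 407, 429 and 389 CPM to 1045, 1067 and 1080.0 CPM (1.38, SE 0.05, adjusted p = 1.3e-06). Col6a2 had 0 counts in all WT libraries and 2.27, 1.86 and 1.81 CPM in the null libraries, at least 29.7-fold higher against the floor. Sparc (0.53), Col4a1 (0.47), Nid2 (1.0), Ecm1 (1.04) and Postn (0.94) rose. The fibrillar collagens Col1a1, at 9476, 9253 and 9704 CPM in WT and 7964, 7531 and 7790.0 CPM in the null libraries (−0.29), and Col3a1 (−0.55) fell, as did the collagen chaperone Serpinh1 (−0.41), which is outside the list. The small proteoglycan Lum fell from 1.5, 1.34 and 1.43 CPM to 0.0628, 0 and 0.298 CPM (−3.55, adjusted p = 0.0118), a call that was lost without null 1 (adjusted p = 0.0581). Of 25 matrix proteases and inhibitors 14 rose and 5 fell, with Adamts12 (139 to 258 CPM, 0.89), Mmp15 (2.73) and Timp3 (0.83) higher and Adamts5 (−0.84), Adamts9 (−0.78) and Adamts1 (−0.59) lower.

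Cell cycle genes went both ways, with 8 of 44 higher and 9 lower, and several replication genes were among the latter. Mcm2, a subunit of the replicative helicase, was at 270.1, 269 and 269 CPM in WT and at 156, 157 and 156 CPM in the null libraries (−0.78, SE 0.04, adjusted p = 8.1e-06), and Mcm6 (−0.40), Mcm5 (−0.30), Mcm7 (−0.28), Mcm4 (−0.22) and Pcna (−0.32) fell with it. Genes that act in mitosis moved both ways, with Cdc25c (0.36), Cenpe (0.35), Aurka (0.28) and Kif20a (0.26) higher and Birc5 (−0.38) and Bub1b (−0.20) lower. Cyclin D1, Ccnd1, which starts the cycle, rose from 908, 875 and 989.5 CPM to 1430.0, 1432 and 1423 CPM (0.63, SE 0.05, adjusted p = 9.2e-05). Of 11 cell cycle inhibitors 5 rose and 3 fell. Cdkn1b, the inhibitor p27, fell from 123, 123 and 118 CPM to 59.4, 61.8 and 65.5 CPM (−0.96, SE 0.05, adjusted p = 1.1e-05), while Cdkn1a (0.92, above) and Gadd45g (0.93) rose. The inhibitors that rose numbered 2 without WT 1 or null 2 and 3 without null 1 or null 3, and 1 fell without WT 1.

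Innate immune and inflammatory genes that passed were mostly higher by count of genes. Of 40 interferon response and antigen presentation genes 12 rose and 4 fell, with Gbp2, an interferon-induced GTPase, at 24.2, 26.2 and 27.3 CPM in WT and at 71.5, 72 and 65.1 CPM in the null libraries (1.42, SE 0.07, adjusted p = 5.0e-06), Irf7 at 0.67 and B2m at 0.26, and with Ifit2 (−1.23) and Stat2 (−0.54) lower. The falls numbered 2 without WT 1, null 1 or null 3. Of 24 cytokines and inflammatory genes 9 rose and 3 fell. The summed level of this list was lower, however, at 1655 to 1666 CPM in WT and 1368 to 1402 CPM in the null libraries. Cxcl12, the chemokine that retains progenitor cells, fell from 599.5, 582 and 589 CPM to 309, 309.9 and 302 CPM (−0.94, SE 0.04, adjusted p = 3.3e-06), whereas Ptgs1 (1.29), Ptgs2 (0.71) and Lif (0.77) rose. Autophagy and lysosome genes had 11 of 36 members higher and 2 lower, led by the protease Ctsl (517 to 900.4 CPM, 0.80) and the cargo receptor Sqstm1 (0.44). The increases numbered 7 without WT 1 or null 2 and 6 without null 3, and 4 genes fell without WT 3.

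Genes that mark positional identity and other cell types were looked at in full. Of 33 tested Hox features 24.2% were called, near the 25.1% of all genes tested. The 4 that rose were Hoxb13 (6 counts over the WT group and 273 over the null group), Hoxc8 (0.246 to 1.36 CPM), Hoxc5 and Hoxc6. Another 4 features fell, among them Hoxa3 and both features of Hoxa4. The falls numbered 1 without WT 1 or null 2 and 2 without null 1 or with a replicate block. Of 10 tested fibroblast markers 4 rose and 3 fell, and their summed level was 10250 to 10571 CPM in WT and 8738 to 9105 CPM in the null libraries, mostly Col1a1. Increases there numbered 2 without WT 1 or any 1 null library or with no count filter, and 1 fell without null 1. Neural and glial markers had 5 of 8 tested genes higher and 0 lower, among them Map2 (8.01 to 15.8 CPM, 0.98), Tubb3 (1.08) and Mapt (1.86), and their summed level was 497 to 626 CPM in WT and 748 to 795 CPM in the null libraries, most of it from Ncam1 and Nes, which myoblasts also express. Of 9 bone and cartilage genes 4 rose and 1 fell, with Alpl, an alkaline phosphatase, at 2.82 and Sox9 at −0.80, and 2 fell with DESeq2, limma-voom or without WT 3. None of 6 leukocyte markers passed, although 1 fell without null 1, and 1 of 5 endothelial markers rose (Eng, 0.41). Of 2 tested epithelial markers 1 fell (Krt7, −0.26), a call that was lost without WT 1 or any 1 null library (adjusted p up to 0.0690), and without WT 2, when 4 were tested, 2 rose and 1 fell. Of 5 adipocyte markers 1 fell (Cebpa, −2.28), which the stricter filter and counts divided by 6 left untested, and 1 rose without WT 1. The part of these cell types in the changes above was not tested, and the defining markers of endothelium, leukocytes, epithelium and neurons were at or near 0 in both groups.

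**Figure D4:**
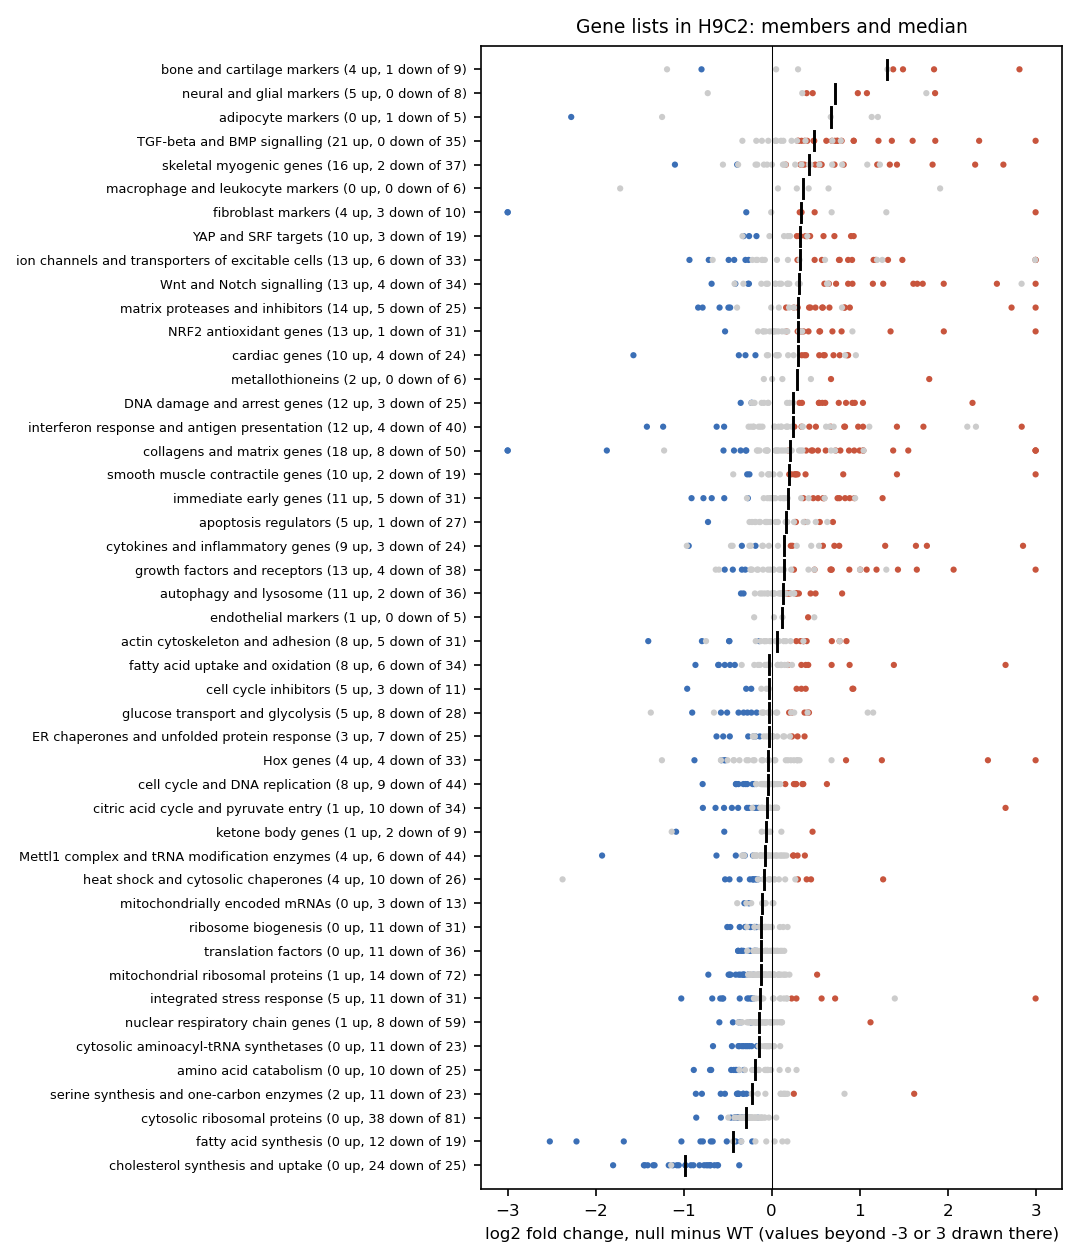
Log2 fold change (null minus WT) of each tested member of each list with at least 5 tested genes, ordered by the median (black bar), red where called higher, blue where called lower and grey where not called, with values beyond −3 or 3 drawn at that limit. Cholesterol synthesis (median −0.98) and fatty acid synthesis (−0.44) lie at the bottom. The lists at the top have few tested genes, and next come TGF-beta and BMP signalling (21 increases among 35 genes) and skeletal myogenic genes (16 among 37).

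The largest fitted fold changes among called genes with at least 1 CPM in the higher group were mostly those of weakly expressed genes outside these lists. Their order depends on fitted values, which are no measured folds where a group had 0 or few counts. Besides Col6a2, there were 0 counts in every WT library for Dtna, dystrobrevin alpha (1.48, 1.27 and 1.94 CPM in the null libraries, at least 23.4-fold higher), the protease Adamts8 (at least 20.2-fold) and the adhesion receptor Adgrb2 (at least 15-fold). The R-spondin receptor Lgr6 rose from 0.167, 0.0797 and 0.109 CPM to 4.46, 3.11 and 3.62 CPM (4.96, SE 0.29), and the kinase Aatk from 0.217 to 8.76 CPM (5.32, SE 0.58). Ces2c (5.08), Sult5a1 (4.93), Fbln1 and Sod3 are also among the 12 largest fitted increases. So are Mgat3, with 15 counts over the WT group and 860 over the null group, and Prokr1, with 12 and 356, for which no fold is given because the WT group lay under the floor of 18 counts. In the other direction, Abcb4, the phospholipid transporter of the bile canaliculus, was at 14.4, 13.8 and 16.5 CPM in WT and at 0.576, 0.541 and 0.458 CPM without Mettl1 (−4.82, SE 0.14, adjusted p = 3.9e-07). Tmem144 (2.37, 2.29 and 1.59 CPM against 0, 0 and 0.106 CPM) was left with 10 counts over the null group, under the floor. Cenpb (−5.02), Aldh5a1 (−3.34), Rhox5 (−2.53), Clic5 (−2.52), Cd9 (−2.48), Nxf7 (−2.46) and Syt1 (−2.43) belong to the same group, as do Lum and Scd. Single libraries or the tool moved several of these values. Over the alternatives Aatk ran from 4.74 to 6.76 and Sult5a1 from 4.37 to 5.70, both well above the reported value without WT 3 and with limma-voom. Ces2c ran from 4.51 to 6.18 (with limma-voom), Cenpb from −5.83 (with limma-voom, and nearly as low without null 1) to −4.44, Clic5 from −3.15 (without null 3) to −2.21, and Lum from −5.44 (without null 3) to −2.97. The null and WT libraries of each of these genes did not overlap, as the rule for naming them required.

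The mouse heart libraries gave a reference from another species, tissue and deletion, fitted separately with 2 cKO against 2 Ctrl libraries and set beside H9C2 by gene symbol without a test between them. In heart RNA 2032 of 14088 genes passed (14.4%), 1150 higher (8.16%) and 882 lower (6.26%), and the count was 1080 with DESeq2 and 1155 without cKO 1. Of 10369 symbols tested in both, 512 were called in both, which is 17.8% of the 2884 called in H9C2 and 33% of the 1553 called in heart, while 15% of all shared symbols were called in heart. Among the 512, 171 were higher in both and 125 lower in both, 103 were higher in H9C2 and lower in heart, and 113 were lower in H9C2 and higher in heart. Across the 10369 genes, which are not independent of each other, Pearson's r of the log2 fold changes was 0.07 and Spearman's rho was 0.033.

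Lists differed in how the values compared. The heart list counts come from the main fit alone and were not repeated under other settings. All heart genes called numbered 1150 higher and 882 lower in that fit. With library totals they numbered 1769 and 506, and with DESeq2 623 and 457. In the DNA damage and arrest list 12 of 25 rose in H9C2 and 9 of 23 in heart, with 0 lower there, and Eda2r (2.28 in H9C2 and 2.12 in heart), Cdkn1a (0.92 and 1.06), Mdm2 (0.85 and 0.55), Ccng1 (0.54 and 0.25) and Phlda3 (0.34 and 2.05) were called higher in both. Amino acid catabolism had 10 of 25 lower in H9C2 and 13 of 24 lower in heart, with 0 higher in either, and Bckdhb (−0.69 and −0.59), Pcca (−0.70 and −0.39) and Aldh6a1 (−0.40 and −0.58) were called in both. Oxct1 was lower in both (−0.54 and −0.36), as were Suclg1 (−0.45 and −0.39) and Gpt2 (−0.67 and −0.76). Cholesterol synthesis did not show this: 24 of 25 fell in H9C2, while in heart 2 of 23 rose and 0 fell, and Hmgcs1 had −0.13 there and did not pass. Aminoacyl-tRNA synthetases had 11 lower and 0 higher in H9C2 and 11 higher and 1 lower among 23 in heart, and cytosolic ribosomal proteins had 34 of 71 symbols higher and 0 lower in heart. In the integrated stress response Ddit3 was higher in both (0.57 and 1.16), whereas Asns (−1.03 and 0.77), Slc7a5 (−0.58 and 1.2), Atf5 (−0.56 and 0.65) and Atf4 (−0.36 and 0.27) were lower in H9C2 and higher in heart.

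**Figure D5:**
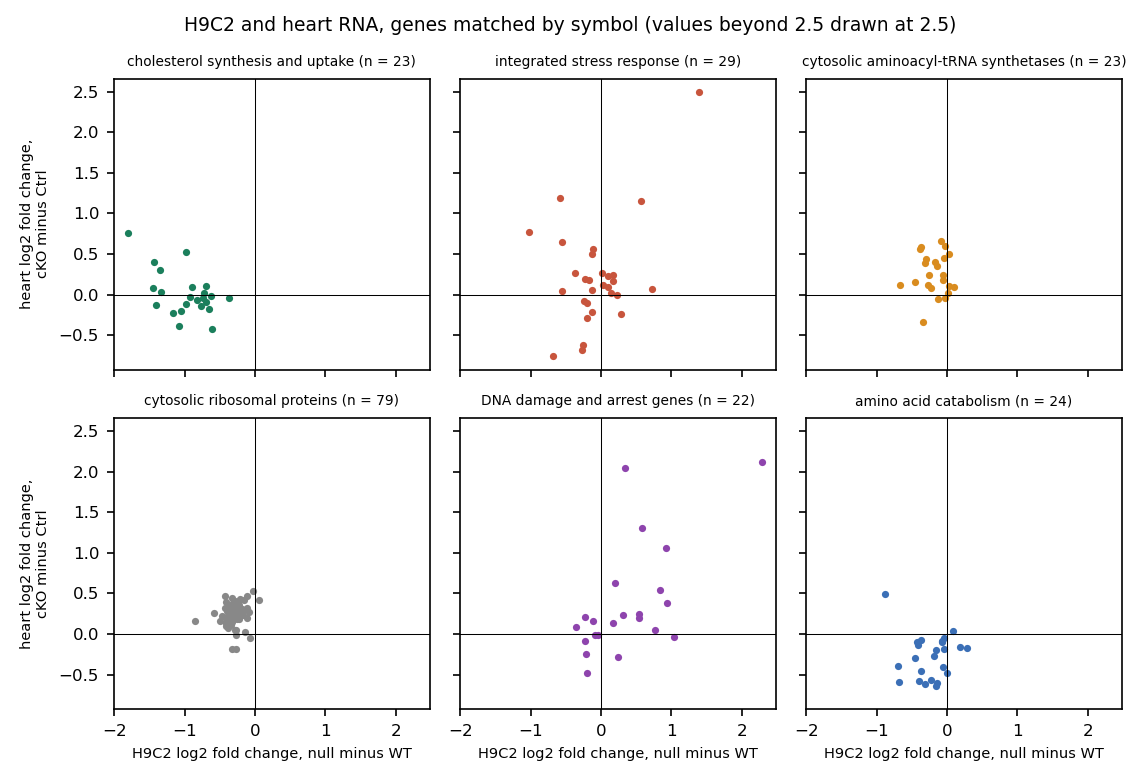
Log2 fold change in H9C2 (null minus WT, horizontal) against heart RNA (cKO minus Ctrl, vertical) for genes of 6 lists matched by symbol, 1 point per gene, with values beyond 2.5 drawn at 2.5. Points of cholesterol synthesis lie left of 0 and around 0 in heart, those of ribosomal proteins lie left of 0 and mostly above 0, and genes of the DNA damage and arrest list such as Eda2r (2.28 and 2.12) reach the upper right.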

How the data were processed

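RNA-seq counts per gene were deposited by the authors as whole numbers with no normalization, as read from the values. Per the submitters' processing notes the tools of the series were StringTie, HISAT2, STAR, featureCounts, Bowtie, Bowtie2, cutadapt and DESeq2 with the builds Rnor_6.0 and GRCm38, and which of them made the rat table is not given there. The column names and the count steps look like those of transcript coverage turned into counts, and how reads with several matches were counted is unknown, so genes with close copies, overlapping genes and antisense pairs are uncertain. Of 32883 rat features 396 had no symbol. The 3 null and 3 WT libraries were fitted with edgeR 4.0.16 (R 4.3.3): glmQLFit and glmQLFTest, TMM factors, filterByExpr (minimum count 10, minimum total 15), no covariates, adjusted p under 0.05. The SE is the absolute log2 fold change over the square root of F, and ± gives the SD. The heart counts (2 against 2) were fitted alone in the same way. The script was tested on simulated counts.

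The members, the 48 gene lists (1576 entries) and the tests were chosen with earlier results of these data known. The rule for naming took Mettl1 and Wdr4 (log2 fold change −0.02, adjusted p = 0.897), the 12 largest fold changes and 6 largest CPM differences per direction among called genes with at least 1 CPM in the higher group, no overlap and a symbol that is no predicted model, per list the 4 called members ranked first by adjusted p, and the defining cell type markers. Other list members were named after their values were seen, and some genes the rule takes are not reported here, though the counts and medians of their lists include them. Lists carry counts and medians only, with no test of a list. Alternatives were RLE factors, library totals, DESeq2 1.42.0, limma-voom (limma 3.58.1), no filter beyond 1 count, a minimum of 50 counts in all libraries of 1 group, a replicate block, each replicate left out and, chosen after seeing the data, counts divided by 6. Footprint and tRNA tables were not used here.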

Additional observations from a re-analysis of the deposited data

Results flagged for a closer look

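Among 52 named genes called both in H9C2 and in heart RNA, 28 had the same direction and 24 the opposite one. Among all 512 symbols called in both, 171 were higher in both and 125 lower in both. The other directions held 103 higher in H9C2 only and 113 higher in heart only, so the named genes were split much as all were. For the 24 opposite named genes, every null library lay on one side of every WT library. Every cKO library lay on the other side of every Ctrl library. In H9C2 the libraries did not overlap for 42.6% of all genes tested, and the share in heart is not given here. The 24 genes were already called in both fits, so the lack of overlap is no separate support. The difference between the 2 systems was not tested, and species, tissue, age and the kind of deletion cannot be told apart. Several heart calls lay near the threshold, such as Thumpd3 and Rps3 (adjusted p = 0.0408 each), Eno3 (0.0389) and Cars (0.0296). Others lay far from it, such as Tmem144 (1.7e-08), Slc7a5 (1.4e-05) and Scd2 (2.4e-05). Heart values of single genes were not repeated under the alternatives, and heart calls went from 2032 to 1080 with DESeq2. Each pair below gives the log2 fold change in H9C2 and then in heart.

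The genes lower in H9C2 and higher in heart were the lipid synthesis genes Insig1 (−1.80 and 0.75) and Scd2 (−2.22 and 0.72), the amino acid supply and tRNA charging genes Asns (−1.03 and 0.77), Slc7a5 (−0.58 and 1.20), Aldh18a1 (−0.38 and 0.69) and Cars (−0.32 and 0.39), the translation, ribosome and tRNA genes Eef1a1 (−0.25 and 0.37), Rps3 (−0.37 and 0.21), Rps4x (−0.39 and 0.27), Nop2 (−0.47 and 0.35), Polr1a (−0.50 and 0.29) and Thumpd3 (−0.41 and 0.44), the chaperones Hsph1 (−0.48 and 0.36) and P4hb (−0.21 and 0.22), and Tmem144 (−5.83 and 1.33) and Clic5 (−2.52 and 0.34). The H9C2 value of Tmem144 rests on 10 counts over the null group, under the floor of 18, so it is a fitted value and no measured fold, and it ran from −10.58 (without null 3) to −5.26 under the alternatives. The genes higher in H9C2 and lower in heart were the smooth muscle genes Mylk (3.09 and −0.29) and Synpo2 (0.81 and −0.34), the muscle isoforms Cox6a2 (1.12 and −0.27) and Eno3 (0.41 and −0.16), the marker genes Eng (0.41 and −0.20) and Nes (0.47 and −0.49), and Alpl (2.82 and −0.38) and Lgr6 (4.96 and −0.36).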

How the results depend on the processing

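The count of genes called in H9C2, 3720, ranged from 3300 to 4402 with other factors, filters, tools and counts divided by 6, and from 2354 (without null 3) to 4455 (without WT 3) when 1 library was left out, with 2463 without WT 1 and 2396 without null 1. Genes past 2-fold numbered 712, and 538 to 806 under these alternatives. With library totals the median of all genes tested went from 0.0044 to 0.0422 and the share of increases among called genes from 54.1% to 63.1%. Of the 195 named genes that were called, 182 kept the call under every alternative that tested them and 13 lost it under at least 1 (Ca3, Cdkn2b, Hoxa4, Krt7, Lum, Mrpl14, Mrpl35, Mt-cyb, Mt-nd4l, Mt-nd5, Mt2A, Ndufa5 and Polr1b). None of the called named genes changed direction, while Wdr4, not called, ranged from −0.10 to 0.03. With library totals the medians of endoplasmic reticulum chaperones and glycolysis changed sign, and those of fatty acid oxidation, cell cycle inhibitors, Hox genes and epithelial markers changed sign under 1 or more alternatives. The heart count, 2032, was 1080 with DESeq2 and 1155 (without cKO 1) to 2002 (without Ctrl 2) with a library left out, and the cause was not tested.

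No label ties samples across groups beyond replicate numbers, and deviations of same-numbered H9C2 libraries correlated at 0.007, 0.048 and −0.053. This correlation was not computed for heart libraries, so a pairing there was not tested. With a replicate block 3147 genes were called in H9C2 (647 past 2-fold), and 2745 in heart against 2032 without it. Null 1 correlated best with WT 3 (0.103) and null 3 with WT 2 (0.06). Depth did not limit abundant genes, but genes near the floor of 18 counts over a group rest on few read pairs, and 3 libraries a group limit the precision.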
